A study of Mus musculus with 12 samples.

Results

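The genes described here are 54 genes of G2 phase and mitosis, taken by name from a list. It holds cyclins, mitotic kinases, spindle checkpoint proteins, motors, kinetochore and condensin subunits, and cytokinesis proteins. The list was chosen with earlier results of these data known, so member shares set beside those of all genes are descriptive. The genes were measured in mouse splenic B cells on 12 one-colour Affymetrix arrays. For 53 of the 54 the array annotation held a probe set that named that gene alone, and each gene was read from its brightest one on average over the 12 arrays. Of these, 46 passed the filter on low values (a log2 value above 4 on at least 3 arrays) and were tested among 9293 genes. The remaining 7 lay below the filter, and Ccnb1, which encodes cyclin B1, is not analysed here because no probe set named it alone.

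The cells were B220+ B cells sorted from spleen by FACS, from mice of a mixed 129/Sv-C57BL/6 background, in 4 groups of 3 arrays. Cells labelled Foxp1flox/del, called deleted cells here, were set against cells labelled Foxp1wt/flox, called control cells. Both genotypes thus carry a flox allele, and the labels name no Cre and do not say whether that allele was recombined. Each genotype was incubated for 4 h either without an addition or with what the labels call IgM, about which they say no more. Age is not among the labels used here, and whether the 3 replicates of a group came from different animals is not stated. The p-values therefore cover the scatter among these samples, which may be technical in part. Foxp1 encodes a forkhead transcription factor. Its probe set lay between 12.14 and 13.20 on the 6 deleted arrays and between 12.08 and 13.30 on the 6 control arrays, and where it lies relative to the deleted stretch is not given in the sources used here, so it checks no label.

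Most genes of G2 and mitosis are silent or nearly so in resting cells and are transcribed together in dividing cells. In quiescent cells the DREAM complex represses them through a promoter element called the CHR, often found with CCAAT boxes that bind NF-Y, and in cycling cells B-Myb and FOXM1 take part in their activation. Cyclin A, cyclin B and CDK1 drive entry into mitosis, the Aurora and Polo-like kinases build the spindle, the checkpoint holds anaphase until every kinetochore is attached, and the anaphase-promoting complex then marks cyclins and securin for destruction. Mature splenic B cells are mostly resting, while their precursors and antigen-activated B cells divide rapidly. In bulk arrays, more dividing cells and more of each RNA per cell cannot be told apart.

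Values are log2 GCRMA signals, differences are on the log2 scale, and the test was limma with Benjamini-Hochberg adjustment over the 9293 genes (threshold 0.05). The number of arrays, 3 per group, limits the precision. The following facts of the series bear on the results. Same-numbered samples deviated together (correlations of 0.17 to 0.85 over 12 pairs), so counts from a fit that blocks on that number stand beside those they change. The third array of deleted cells with IgM stood apart from its group mates (correlation 0.817 to 0.865, against 0.951 or more within groups elsewhere), so results are also given without it. Xist is the RNA made from the inactive X chromosome of female cells. It lay between 2.23 and 2.44 on the 4 replicate 1 arrays and between 7.67 and 11.75 on the other 8. By this marker replicate 1 came from other animals than replicates 2 and 3, so the scatter within groups includes a difference between animals. Whether replicates 2 and 3 came from separate animals is not stated. Among B cell markers, Cd79a, Cd79b, Ms4a1 and Pax5 were above 4 on all 12 arrays.

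Promoter sequence was set beside the members because the CHR and CCAAT elements are what many of these genes are known to share, and the choice of members did not use it. RefSeq promoter windows of GRCm38.p6, from 250 bases before to 50 bases after the start, matched 43 of the members with 45 windows. The CHR was searched as TTTGAA or TTCGAA and the CCAAT box as CCAAT, each on both strands and independently, so that the matches may share an end base. The sequences printed, from 200 bases before the start to the base before it, on the strand of the gene and with both motifs in capitals, are a window with both motifs close to the start (Cdk1, chr10:69352913-69353112 (minus strand)), windows of members that passed a test below (Ncapg, chr5:45669725-45669924 (plus strand), Ncapd2, chr6:125191587-125191786 (minus strand), and Mki67, chr7:135716380-135716579 (minus strand)) and, for contrast, a window of such a member with neither motif (Nuf2, chr1:169531465-169531664 (minus strand)).
Cdk1: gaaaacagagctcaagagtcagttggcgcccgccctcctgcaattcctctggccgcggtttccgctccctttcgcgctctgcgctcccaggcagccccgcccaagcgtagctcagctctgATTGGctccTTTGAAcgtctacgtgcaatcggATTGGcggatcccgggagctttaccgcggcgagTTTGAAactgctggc
Ncapg: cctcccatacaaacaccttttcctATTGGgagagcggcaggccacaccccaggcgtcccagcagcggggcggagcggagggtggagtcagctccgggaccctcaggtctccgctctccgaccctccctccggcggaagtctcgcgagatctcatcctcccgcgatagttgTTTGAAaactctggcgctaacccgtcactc
Ncapd2: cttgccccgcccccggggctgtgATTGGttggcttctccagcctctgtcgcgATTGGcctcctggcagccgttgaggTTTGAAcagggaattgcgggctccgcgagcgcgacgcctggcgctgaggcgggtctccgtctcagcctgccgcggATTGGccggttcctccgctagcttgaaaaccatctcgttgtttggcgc
Mki67: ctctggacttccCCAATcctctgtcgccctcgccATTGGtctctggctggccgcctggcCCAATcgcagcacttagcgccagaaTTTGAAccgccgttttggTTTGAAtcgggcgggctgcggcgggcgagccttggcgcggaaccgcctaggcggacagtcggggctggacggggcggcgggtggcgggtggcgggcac
Nuf2: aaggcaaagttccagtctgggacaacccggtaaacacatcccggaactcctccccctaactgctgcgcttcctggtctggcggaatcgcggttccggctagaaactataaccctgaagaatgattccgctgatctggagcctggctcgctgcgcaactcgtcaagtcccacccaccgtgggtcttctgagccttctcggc

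A CHR match stood in 36 of the 45 member windows (80.0%), against 19.2% of all 32851 windows. A CCAAT match stood in 73.3% of them against 37.4%, and both motifs in 68.9% against 7.53%. Of the 51 CHR matches in member windows, 37 lay within 100 bases of the start. Letters of a forkhead site, searched as TGTTTAC or TGTTTAT on both strands, were in 6.67% of member windows and in 7.97% of all windows. Such a match is a description of the letters and not evidence of binding, and the windows of Nuf2 and Nusap1, both called below, held neither the CHR nor the CCAAT letters.

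Across the members, most levels were higher in deleted than in control cells in both states, and only a few single genes passed the test within a state. Without IgM the median difference of the 46 was 0.91 (0.0025 over all 9293 genes) and 44 were positive. Ccna2 and Nuf2 rose, so that 2 of 46 members were called higher and 0 lower, where 2.03% of all genes were called higher. An unadjusted limma p under 0.05 in either direction was found for 24 members and for 981 of all 9293 genes. A fit to only the arrays without IgM called 3 other members and neither Ccna2 nor Nuf2, where 2.37% of all genes were called higher. With the replicate block 8 members were called higher, where 4.51% of all genes were. The 3 deleted arrays lay above all 3 control arrays for 27 of the 46, against 10.3% of all genes, and below them for 0. Leaving out 1 array moved the 2 calls to 0 (replicate 1 or 3 of control cells without IgM, 1 or 2 of deleted cells without IgM, 1 or 3 of control cells with IgM, or 2 of deleted cells with IgM) or to 1 (replicate 2 of either control group, or 1 of deleted cells with IgM).

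With IgM the median difference was 1.05 (0.077 over all genes), and 44 members were again positive. Nusap1, Nuf2 and Ncapg rose, which makes 3 of 46 where 1.59% of all genes were called higher, and 0 fell. The block gave 16, against 5.66% of all genes. Deleted arrays lay above all control arrays for 20 members, against 12.3% of all genes. A fit to only the 6 arrays with IgM called 0 members and 0 of all genes. The count was 0 without replicate 1 or 3 of control cells with IgM, replicate 3 of control cells without IgM or replicate 2 of deleted cells without IgM, and 1 without replicate 1 of control cells without IgM, replicate 2 of control cells with IgM or replicate 2 of deleted cells with IgM.

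Taken over both states, 19 members rose and 0 fell, where 4.95% of all genes rose, and the block gave 27, where 9.96% did. This average counts the stimulated and the unstimulated array of one number as separate samples, which they may not be. The limma adjusted p over both states given below for single genes carry this limit. When those 2 arrays were averaged first, leaving 3 against 3, 0 members were called without the block, where 0.958% of all genes rose, and 21 with it, where 6.22% did, an alternative chosen after seeing the data. The count was also 0 without the arrays of replicate 1 and 0 without those of replicate 2, and 23 without those of replicate 3, where 0.968%, 0.818% and 5.32% of all genes rose. Leaving out the replicate 1 array of deleted cells without IgM alone gave 11, where 3.31% did. The filter matters to these counts, since 6 members (Ttk, Tpx2, Hmmr, Cenpe, Cenpf and Anln) had fewer than 3 control arrays above 4 and passed through deleted arrays. Of these, Ttk, Tpx2, Hmmr and Anln are also among the members whose deleted arrays lay above all control arrays in each state. Among the other 40, 2 rose without IgM, 3 with IgM and 15 over both states. The median differences of those 40 were 0.92, 0.84 and 0.85. The heat map of the members shows the 12 arrays side by side.

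**Figure D1:**
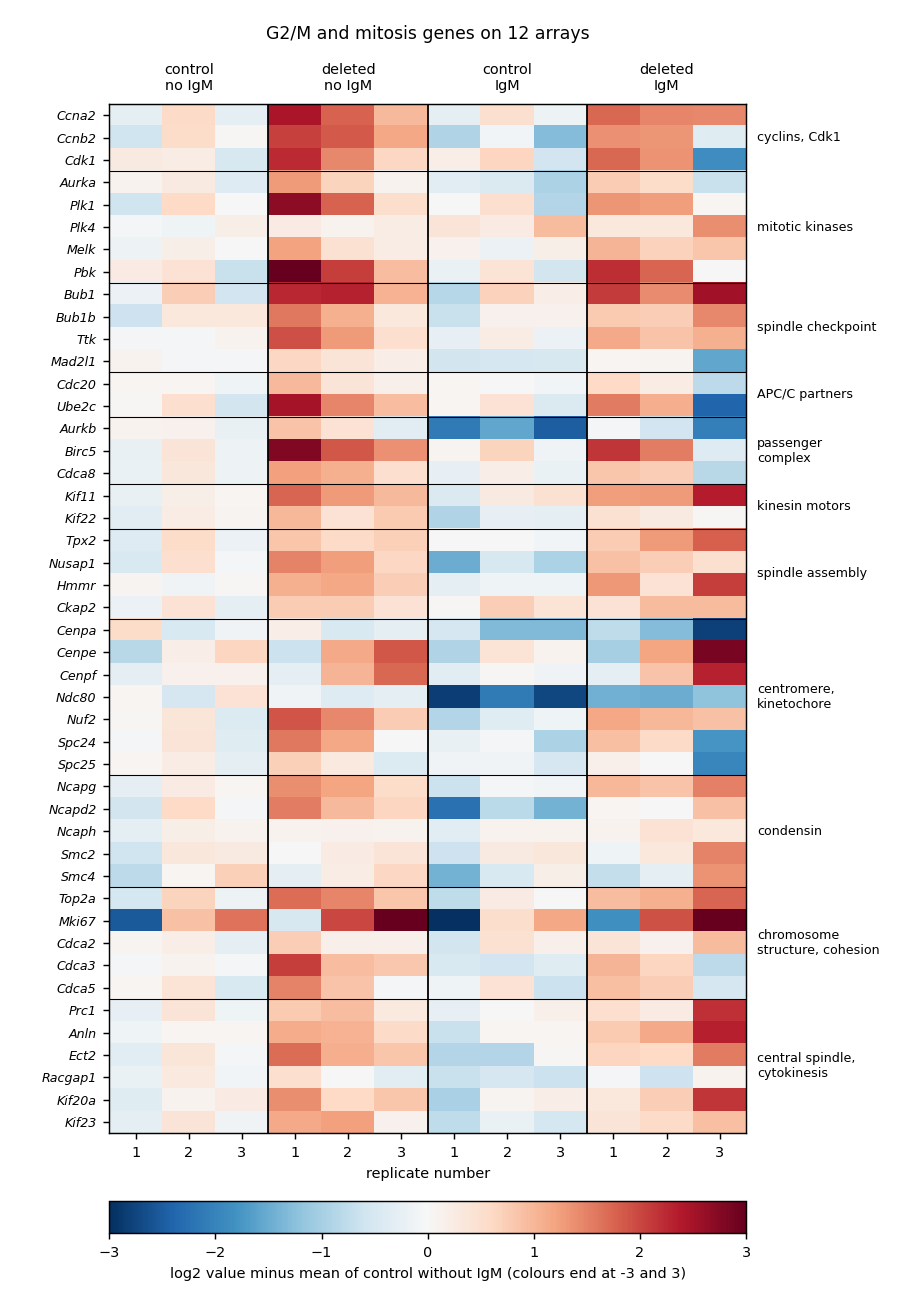
Each row is 1 of the 46 tested genes and each column 1 array, grouped by genotype and stimulus and numbered by replicate, and the colour is the log2 value minus the mean of the 3 control arrays without IgM. Most rows are red in both deleted groups, Mki67 is low on all replicate 1 arrays, and the third array of deleted cells with IgM differs from its group mates in both directions.

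Among the cyclins and CDK1, Ccna2, which encodes cyclin A2 of S phase and G2, had values of 5.85, 6.72 and 5.84 on the control arrays without IgM and 8.59, 7.91 and 7.10 on the deleted arrays. All 3 deleted arrays lay above all control arrays. The difference was 1.73 ± 0.38 (SE), or 3.31-fold (limma adjusted p = 0.0385). With IgM the values were 5.84, 6.63 and 5.98 in control and 7.85, 7.60 and 7.57 in deleted cells, again without overlap, a difference of 1.53 ± 0.38 that missed the threshold (limma adjusted p = 0.0774) and passed with the replicate block (limma adjusted p = 0.0289, range over the alternatives 0.0289 to 0.493). Ccnb2, a B-type cyclin, differed by 1.69 ± 0.51 without IgM and 1.54 ± 0.51 with it. It missed the threshold within each state and passed with the block (limma adjusted p = 0.0275 and 0.0428, ranges over the alternatives 0.00546 to 1 and 0.00998 to 0.653). It rose over both states by 1.61 ± 0.36 (limma adjusted p = 0.0222). Cdk1, the kinase both cyclins activate, lay at 5.58, 5.54 and 4.86 in control and at 7.55, 6.77 and 5.95 in deleted cells without IgM. In deleted cells with IgM it lay at 7.05 and 6.67 on replicates 1 and 2 and at 3.47 on replicate 3, below every control array. Its difference over both states was 0.88 ± 0.57 (limma adjusted p = 0.502) with that array and 1.44 without it (limma adjusted p = 0.0199).

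The mitotic kinases differed in size rather than in sign. Pbk, a kinase of dividing cells, lay at 5.63, 5.81 and 4.71 in control and 8.37, 7.45 and 6.31 in deleted cells without IgM, and rose over both states by 1.72 ± 0.44 (limma adjusted p = 0.044). Melk, another such kinase, rose by 0.71 ± 0.18 (limma adjusted p = 0.0409). Plk1, the Polo-like kinase of mitotic entry, differed by 1.34 ± 0.41 and Aurka, the kinase of spindle poles, by 0.73 ± 0.29 over both states. Neither passed without the block (limma adjusted p = 0.0895 and 0.205), and both passed with it (0.0179 and 0.0113, ranges over the alternatives 0.0144 to 0.621 and 0.00105 to 0.679). Plk4, which drives centriole duplication, was almost level between genotypes at 0.17 ± 0.21.

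In the spindle checkpoint, Bub1, a kinase at unattached kinetochores, had the largest difference over both states among the 46 members, 1.94 ± 0.36 (limma adjusted p = 0.00837). Its values were 4.37, 5.30 and 3.98 in control and 6.81, 6.87 and 5.60 in deleted cells without IgM, and 3.70, 5.24 and 4.75 against 6.65, 5.97 and 7.07 with IgM. The deleted arrays lay above the control arrays in each state. Its partner Bub1b rose over both states by 1.06 ± 0.28 and the checkpoint kinase Ttk by 1.16 ± 0.22 (limma adjusted p = 0.0477 and 0.00993). Ttk passed the filter only through deleted arrays. Mad2l1, which encodes MAD2, differed by 0.22 ± 0.26. Of the partners of the anaphase-promoting complex, Cdc20, its mitotic activator, differed by 0.51 ± 0.33 without IgM and 0.0049 with it (0.40 when the third deleted array with IgM was left out), and Ube2c, its ubiquitin-conjugating enzyme, by 1.63 ± 0.86 and 0.08. Ube2c lay at 8.51, 8.04 and 4.58 in deleted cells with IgM and at 6.99, 7.39 and 6.51 in control cells with IgM, so that replicate 3 alone was below the controls. Without that array its difference over both states was 1.47 (limma adjusted p = 0.0167), against 0.85 with it (limma adjusted p = 0.546).

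The chromosomal passenger complex corrects faulty attachments and guides cytokinesis. Birc5, which encodes its subunit survivin, lay at 5.69, 6.30 and 5.76 in control and 8.70, 7.78 and 7.29 in deleted cells without IgM, without overlap. The difference of 2.01 ± 0.58 missed the threshold (limma adjusted p = 0.119) and passed with the block (limma adjusted p = 0.028, range over the alternatives 0.00305 to 0.841). Cdca8 (borealin) and Aurkb, its kinase, differed over both states by 0.63 ± 0.29 and 0.74 ± 0.34. Of the motors, Kif11, which pushes the spindle poles apart, and Kif22, which moves chromosome arms, rose over both states by 1.43 ± 0.25 and 0.74 ± 0.18 (limma adjusted p = 0.00569 and 0.0339).

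Of the 4 tested spindle assembly factors, 1 was called with IgM and 3 over both states. Nusap1, which bundles spindle microtubules, lay at 6.54, 7.53 and 7.06 in control and 8.91, 8.75 and 8.51 in deleted cells with IgM. The groups did not overlap, and the difference was 1.68 ± 0.33, or 3.20-fold (limma adjusted p = 0.0335). Without IgM it was 1.12 ± 0.33 (limma adjusted p = 0.134). Tpx2, the activator of Aurora A, and Hmmr, a spindle pole protein, rose over both states by 1.0 ± 0.21 and 1.22 ± 0.24 (limma adjusted p = 0.0169 and 0.0109). Both passed the filter only through deleted arrays, and Hmmr was at 3.18 or below on all control arrays. Ckap2, a microtubule stabiliser, differed by 0.52 ± 0.19 (limma adjusted p = 0.166, or 0.0393 with the block, range over the alternatives 0.0229 to 0.604).

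In the NDC80 complex, which grips microtubules at the kinetochore, Nuf2 rose in each state and the other 3 subunits passed in neither without the block. Nuf2 lay at 4.19, 4.52 and 3.76 in control and 6.04, 5.60 and 4.92 in deleted cells without IgM. With IgM it lay at 3.28, 3.79 and 4.02 in control and 5.32, 5.15 and 5.04 in deleted cells. The groups did not overlap in either state, and the differences were 1.36 ± 0.32 and 1.47 ± 0.32 (limma adjusted p = 0.0485 and 0.0461). Its partners Spc24 and Spc25 differed by 0.60 ± 0.45 and -0.08 ± 0.35 over both states, or by 1.02 ± 0.30 and 0.26 ± 0.20 without the third deleted array with IgM. Neither passed in that fit, and Spc24 passed when the block was added to it (limma adjusted p = 0.00517). Differences between subunits were not tested. Ndc80, the subunit the complex is named for, differed by -0.27 ± 0.27 without IgM and by 1.18 ± 0.27 with it (limma adjusted p = 0.0552 for the latter, or 0.0326 with the replicate block, range over the alternatives 0.0326 to 0.541). Cenpa, the histone variant that marks centromeres, was the member with the most negative difference over both states, at -0.37 ± 0.34 (-0.08 ± 0.24 without the third deleted array with IgM), and was higher in deleted cells in only 1 of 6 same-numbered pairs. Cenpe and Cenpf, kinetochore proteins of late G2 and mitosis, differed by 0.97 ± 0.64 and 0.96 ± 0.43, and neither passed.

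Condensin compacts chromosomes. Of its non-SMC subunits, Ncapg and Ncapd2 rose over both states by 1.21 ± 0.21 and 1.43 ± 0.30 (limma adjusted p = 0.00492 and 0.0169). Ncaph, also non-SMC, differed by 0.22 ± 0.14. The second passing probe set of Ncapd2, at 3.76 to 4.21 over the arrays, differed by 0.05. The ATPase subunits Smc2 and Smc4 differed by 0.39 ± 0.30 and 0.44 ± 0.41. Ncapg lay at 3.80, 4.40 and 4.38 in control and 5.45, 5.31 and 5.97 in deleted cells with IgM, without overlap, a difference of 1.39 ± 0.29 (limma adjusted p = 0.0392). Top2a, the topoisomerase that untangles sister chromatids, rose over both states by 1.37 ± 0.28 (limma adjusted p = 0.0133). Cdca3, a trigger of mitotic entry, and Cdca5, which encodes the cohesion factor sororin, differed by 1.01 ± 0.31 and 0.62 ± 0.34, missed the threshold and passed with the block (limma adjusted p = 0.0343 and 0.0452, ranges over the alternatives 0.00113 to 0.600 and 0.018 to 0.802). Cdca3 also passed without the third deleted array with IgM, at 1.28 ± 0.22 (limma adjusted p = 0.00569). Among the proteins of the central spindle and cytokinesis, Ect2, the exchange factor that activates RhoA, Anln (anillin) and the kinesin gene Kif23 rose over both states by 1.36 ± 0.26, 1.26 ± 0.26 and 0.97 ± 0.23. Their limma adjusted p were 0.00951, 0.0165 and 0.0275. Anln passed the filter only through deleted arrays. Kif20a differed by 1.12 ± 0.33, Prc1 by 0.84 ± 0.31 and Racgap1 by 0.25 ± 0.19, and of these only Kif20a passed with the block (limma adjusted p = 0.0313, range over the alternatives 0.0237 to 0.386).

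**Figure D2:**
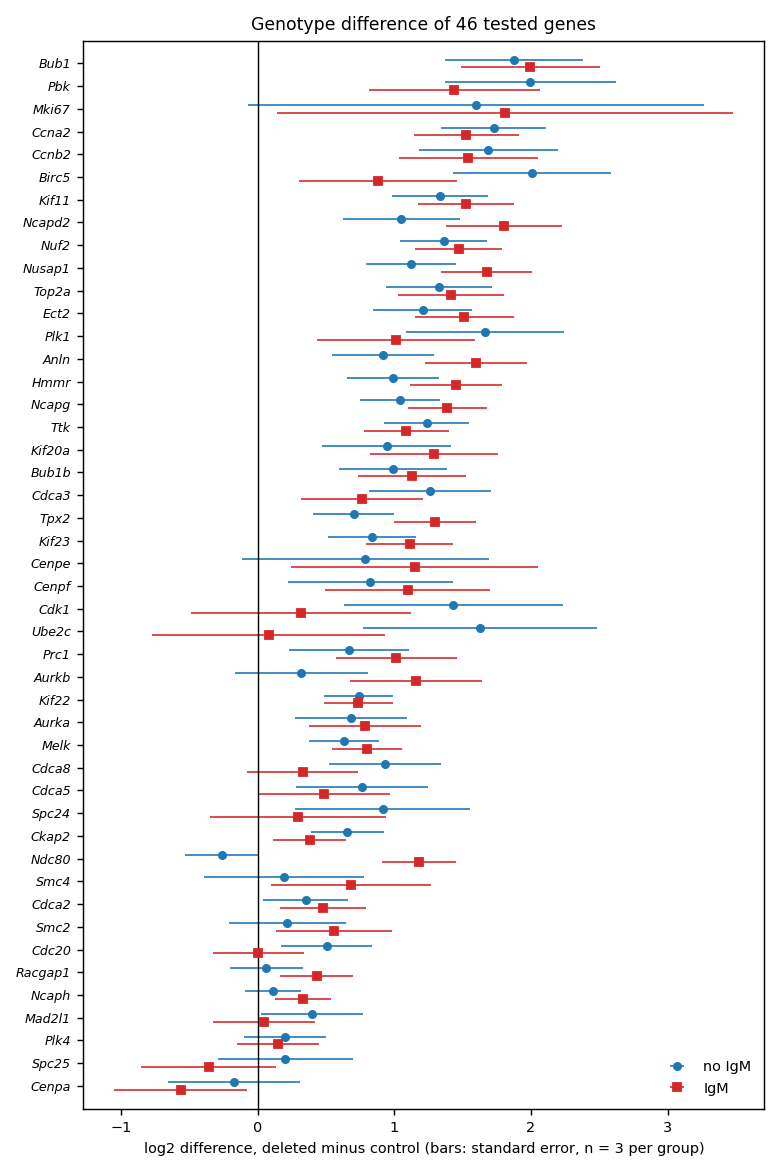
The log2 difference, deleted minus control, is shown for each of the 46 tested genes without IgM (circles) and with IgM (squares), with bars of 1 standard error from limma and genes ordered by the mean of both. Most points lie right of 0, from Bub1 at the top (1.88 without IgM) to Cenpa at the bottom (-0.18 and -0.57), and the bars of Mki67, Cenpe, Cdk1 and Ube2c are wide.

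Mki67, which encodes the proliferation marker Ki-67, shows what the pairing by number does. Its values were 3.45, 6.85 and 7.59 in control and 5.49, 7.98 and 9.23 in deleted cells without IgM, and 2.61, 6.50 and 7.12 against 4.13, 7.88 and 9.64 with IgM. The replicate 1 array was the lowest of its group each time, so the groups overlapped, yet each deleted array was above the control array of its number, by 1.12 to 2.52. Over both states the difference of 1.71 had an SE of 1.18 without the block and 0.23 with it (limma adjusted p = 0.532 and 0.00149, range over the alternatives 0.000642 to 0.838). The plots of single genes show these levels.

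**Figure D3:**
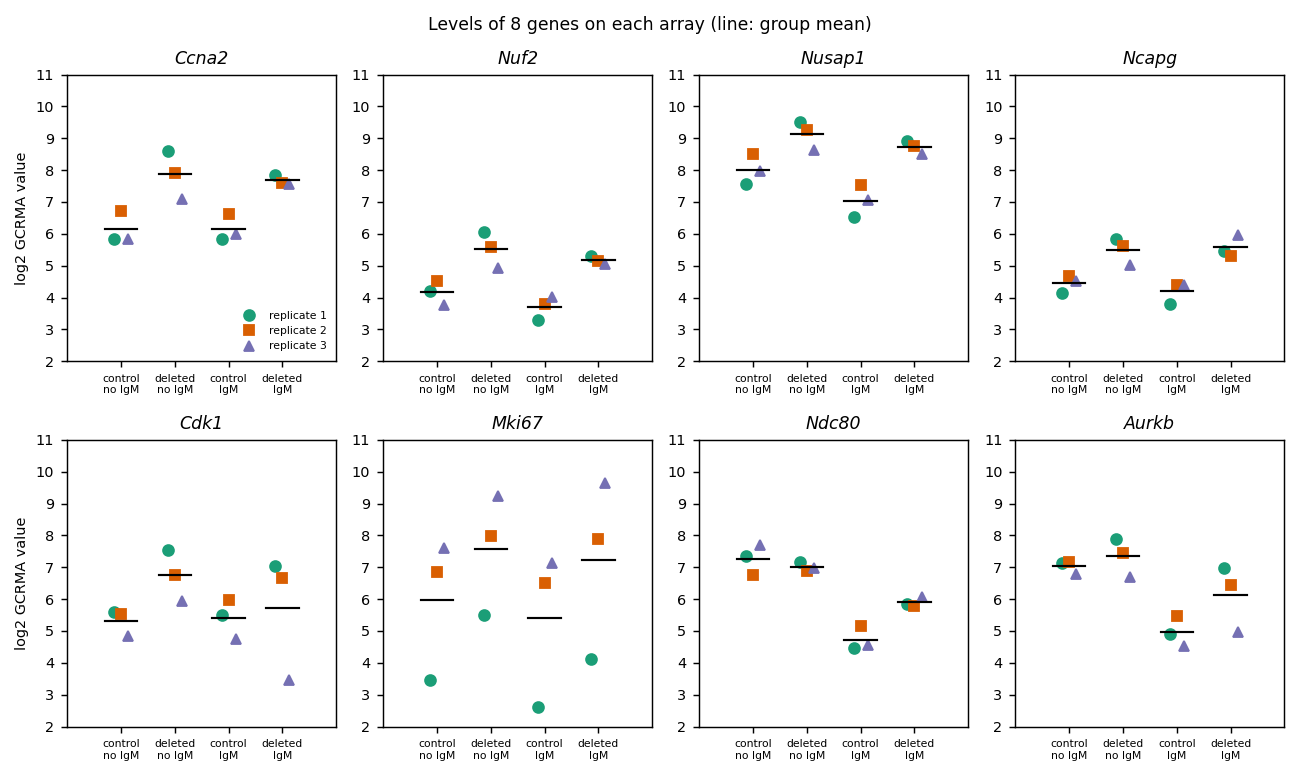
Log2 GCRMA values of 8 genes on each of the 12 arrays, with replicates 1, 2 and 3 as circles, squares and triangles and the group mean as a line. Ccna2, Nuf2, Nusap1 and Ncapg are higher in deleted cells, Mki67 is low on every replicate 1 array, Cdk1 is at 3.47 on the third deleted array with IgM, and Ndc80 and Aurkb are lower with IgM.

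Read pair by pair, 27 of the 46 members were higher in deleted cells in 6 of 6 same-numbered pairs, against 14.6% of all genes, and 13 more in 5 of 6. Among the 40 members not dependent on deleted arrays to pass the filter, 22 were higher in 6 of 6. Of the 13, the exception was the IgM pair numbered 3 for 8. The pairs were unequal. Without IgM the median member difference was 1.42 in the pair numbered 1, 0.74 in that numbered 2 and 0.55 in that numbered 3, and the first pair had the largest difference for 41 of the 46. With IgM the medians were 1.35, 0.71 and 0.99, and the first pair was the largest for 28.

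The third array of deleted cells with IgM departed from its group mates by between -3.70 (Ube2c) and 3.63 (Mki67) among the members. The departure tended to be negative for members with a short genomic span, such as Spc24, Birc5 and Spc25 (-2.50, -2.23 and -2.03), and positive for longer ones, such as Cenpe, Cenpf and Smc4 (2.77, 2.01 and 1.85). There were exceptions, since Kif20a with a span of 8654 bases was at 1.61, Cdk1 with 17767 bases at -3.39, and Melk, the longest at 63767 bases, at -0.02. Across the 46 members, which share this library, the departure and the span had a Spearman rho of 0.68, and across 9277 genes 0.49. For the other replicate 3 arrays rho over the members was 0.36 to 0.56. On the third deleted array without IgM, Mki67, Cenpe and Cenpf also lay above their group mates (by 2.49, 1.63 and 1.36), while 38 of the 46 members lay below. Without the third deleted array with IgM, 12 members rose in deleted cells without IgM, where 3.84% of all genes did. With IgM 3 rose, where 2.09% did, and over both states 27, where 7.13% did. With the block added the counts were 29, 19 and 36, where 11.6%, 9.73% and 18% of all genes rose. With IgM, Nusap1 was called with and without the array, Nuf2 and Ncapg lost their calls without it, and Ccnb2 and Aurkb gained one. Over both states 9 members gained a call (Cdk1, Aurka, Plk1, Mad2l1, Ube2c, Aurkb, Birc5, Cdca8 and Cdca3) and Bub1b lost its call. The part of RNA quality in these values was not tested.

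**Figure D4:**
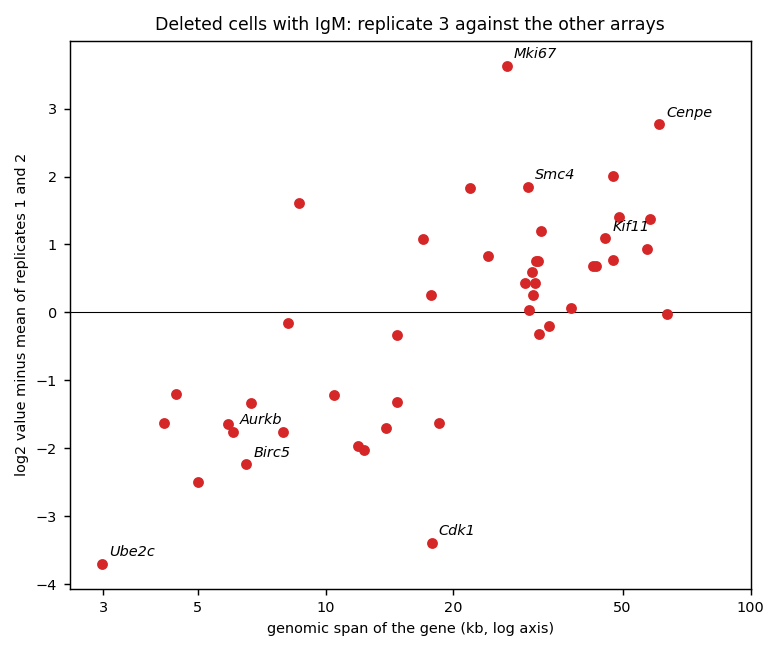
Each point is 1 of the 46 tested genes. The horizontal axis is the genomic span in kb on a log axis, and the vertical axis is the log2 value on the third array of deleted cells with IgM minus the mean of the other 2 arrays of that group. Ube2c, the shortest, lies lowest at -3.70 and Cenpe lies at 2.77, while Mki67, of middling span, lies highest at 3.63.

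Stimulation with IgM for 4 h did not raise the members as a group. In control cells 3 of 46 fell (Ndc80, Aurkb and Ncapd2) and 0 rose, where 12% of all genes fell and 809 of 9293 rose. The median difference was -0.15 (-0.05 over all genes). In deleted cells Ndc80 alone fell, 1 of 46, where 9.21% of all genes did, and 0 rose, where 909 of 9293 did. The median was -0.26 (-0.08 over all genes). With the block 5 fell in control cells, adding Nusap1 and Cenpa, where 20% of all genes fell, and 3 in deleted cells (Ndc80, Aurkb and Cenpa), where 19.3% did. Each of these shares is below that of all genes. The cyclins showed little movement in control cells, with 0.01 ± 0.38 for Ccna2 and 0.09 ± 0.80 for Cdk1.

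Ndc80 lay at 7.34, 6.77 and 7.70 in control cells without IgM and at 4.46, 5.15 and 4.55 with it. It fell by 2.55 ± 0.27 on the log2 scale (5.87-fold, limma adjusted p = 0.000171), and this call held under all 25 alternatives run. In deleted cells it went from 7.17, 6.88 and 6.98 to 5.84, 5.79 and 6.07, a fall of 1.11 ± 0.27 (limma adjusted p = 0.016), and the groups did not overlap in either genotype. Aurkb lay at 7.12, 7.16 and 6.79 in control cells without IgM and at 4.90, 5.48 and 4.54 with it, a fall of 2.05 ± 0.48 (limma adjusted p = 0.0125). Its probe set is of a type that can also detect related transcripts, and those of Cdc20, Kif22, Hmmr and Ncaph are of the same type. The second Aurkb probe set differed by -0.995, in the same direction. In deleted cells Aurkb went from 7.88, 7.46 and 6.69 to 6.98, 6.46 and 4.96, a difference of -1.21 ± 0.48 (limma adjusted p = 0.109, or 0.0149 with the block, range over the alternatives 0.0149 to 0.364). Ncapd2 fell in control cells from 6.66, 7.81 and 7.18 to 4.97, 6.41 and 5.81, by 1.49 ± 0.43 (limma adjusted p = 0.0302). Without the third deleted array with IgM, 6 members fell and 1, Plk4, rose in control cells, where 19.5% of all genes fell and 16.6% rose, and with the block added 9 fell, where 33.7% did. In deleted cells 1 member fell without that array, where 12.8% of all genes did, and 4 with the block added, where 29.2% did. Without replicate 3 of control cells with IgM, 1 member fell in control cells. In deleted cells the count was 0 without replicate 1 of the unstimulated arrays and 3 without replicate 1 of the stimulated ones.

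**Figure D5:**
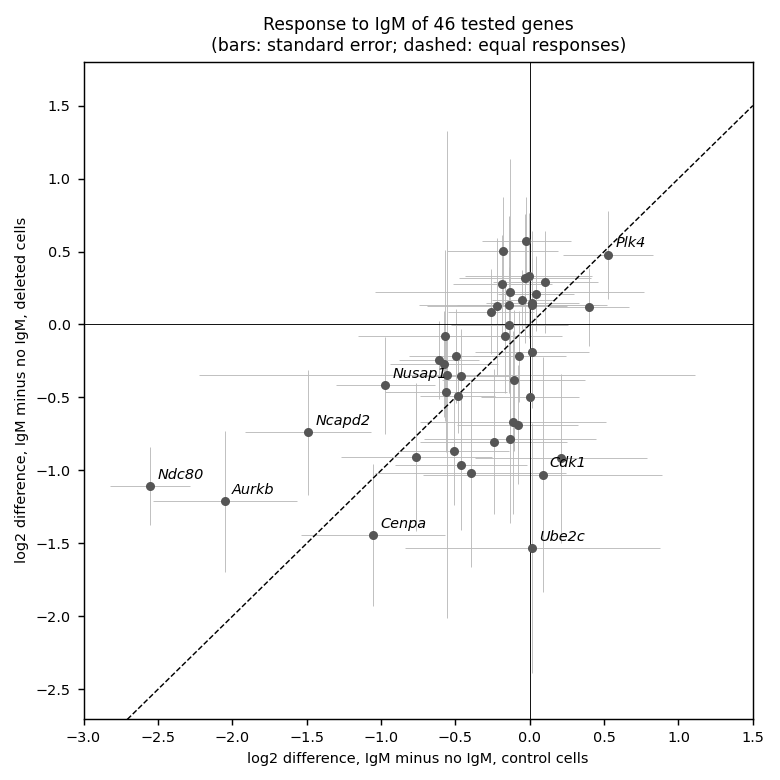
For each of the 46 tested genes, the log2 difference IgM minus no IgM in control cells (horizontal) is plotted against that in deleted cells (vertical), with bars of 1 standard error and a dashed line where both are equal. Most genes lie near 0 on both axes, and Ndc80 (-2.55 and -1.11), Aurkb (-2.05 and -1.21) and Ncapd2 (-1.49 and -0.74) lie above the line.

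Whether the genotype difference itself changed with IgM was tested as an interaction. It called 0 of 46 members, where 0.108% of all genes were called, and 0 with the block, where 0.172% were. At an unadjusted p under 0.05 there was 1 member, Ndc80, with an interaction of 1.45 ± 0.38 (unadjusted p = 0.00309, limma adjusted p = 0.522, or 0.231 with the block). Of all 9293 genes, 355 were under the same unadjusted cutoff. The members called only without IgM or only with IgM are therefore not shown to differ between the states.

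The 7 members below the filter never rose above 4.32. Foxm1, the forkhead factor that activates G2 genes, lay between 2.27 and 3.55 over the 12 arrays, and Cdc25c, the phosphatase that activates CDK1, between 2.25 and 2.59. Kif2c, a kinesin that takes apart microtubule ends, had the highest value of the 7, with 2.83, 2.83 and 2.59 in control and 4.32, 3.86 and 3.64 in deleted cells without IgM. The lowest value on the arrays was 2.23, so these levels lie close to it and no fold is given. In a fit with no filter Kif2c was called higher without IgM and over both states (limma adjusted p = 0.0242 and 0.00381). With IgM it missed the threshold there (limma adjusted p = 0.0526). Of the 17 members with at least 2 passing probe sets, 14 had all of them on the same side of 0 for the genotype difference over both states and 3 did not. Plk4, Smc2 and Smc4 were those 3.

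The other genes of the pathway were taken from lists chosen with earlier results of these data known. Of 83 further G2 and mitosis genes 62 were tested, and 5 rose over both states and 0 fell (14 and 1 with the block), with a median of 0.30. Of all genes 4.95% rose, and 9.96% with the block, and the counts of the lists that follow stand beside the same 4.95%. Nek2, a centrosome kinase, rose by 1.49 ± 0.17 and Cdc25b, a phosphatase that starts CDK1 activation, by 1.64 ± 0.25 (limma adjusted p = 0.000502 and 0.0028). Of 17 subunits and partners of the anaphase-promoting complex 0 of 17 passed. Of 16 tested DREAM, B-Myb and E2F genes 1 rose, the repressor gene E2f8 by 0.85 ± 0.20 (limma adjusted p = 0.0313), while Mybl2, which encodes B-Myb, stayed between 2.46 and 2.66. Of 38 tested G1/S and replication genes 4 rose, Rrm2 among them, a ribonucleotide reductase subunit gene, by 1.12 ± 0.17 (limma adjusted p = 0.00254). With IgM in control cells, Cdc25b fell by 3.44 ± 0.35 and E2f2 by 2.40 ± 0.27, while the inhibitory kinase gene Wee1 rose by 0.99 ± 0.23 and the cyclin gene Ccnd2 by 0.95 ± 0.29 (limma adjusted p = 0.000148, 0.000226, 0.0109 and 0.0378). In that comparison 3 of the 62 were called higher and 2 lower. Of the 16, 1 was called higher and 4 lower, and of the 38, 1 higher and 5 lower. Of all genes 809 of 9293 were called higher and 12% lower. The calls lower included the cyclin gene Ccnd3 (-1.7573) and, from the DREAM list, Rbl2 (-2.1399) and Rbl1 (-2.008).

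Markers of other cells moved with genotype as well. The summed linear signal of 5 lists was higher in deleted cells in 6 of 6 same-numbered pairs. For 8 mast cell, basophil and progenitor markers it was 219 to 631 in control and 1082 to 2813 in deleted cells without IgM. For 9 neutrophil and granule markers with a probe set it was 408 to 2913 against 4020 to 25266. For 10 pre-B and immature B cell markers it was 6329 to 7586 against 8435 to 10024, and Dntt, the terminal transferase of B cell precursors, lay at 2.27 to 2.41 in control and 5.15 to 6.17 in deleted cells. Sums of the macrophage list ran from 259 to 639 against 848 to 3337, with Fcgr1, Mertk, C1qa and C1qb at or below 4 on all arrays. Lyz2, the brightest of that list, lay at 6.34 to 8.52 in control and 9.08 to 11.29 in deleted cells without IgM. In that state Csf1r rose by 3.69 ± 0.72 and Adgre1 fell by 1.45 ± 0.31 (limma adjusted p = 0.02 and 0.0334). Sums of the NK list ran from 210 to 1522 against 663 to 2186. The dendritic list was higher in 4 of 6 pairs. The erythroid list was higher in 3 of 6, with Hba-a1, Klf1, Epor and Epb42 at or below 4. Its brightest marker, Tfrc, weighs most in that sum. Without IgM Tfrc lay at 12.38 to 12.67 in control and 11.89 to 12.35 in deleted cells. Alas2 rose over both states by 2.16 ± 0.49 (limma adjusted p = 0.023). It was the 1 call among 5 tested erythroid markers, and 0 fell. The plasma cell, germinal centre and T cell lists were higher in 2 of 6 each. Cd4, Cd8a, Cd8b1 and Zap70 were at or below 4. Without IgM Cd2, the brightest T cell marker, lay at 10.85 to 11.49 in control and 9.97 to 10.81 in deleted cells. Cd3d lay at 5.25 to 7.30 and 6.39 to 8.30, and 0 of 4 tested T cell markers were called by genotype. Of the plasma cell markers, Irf4 fell by 0.89 ± 0.18 without IgM (limma adjusted p = 0.0234). Prdm1 rose by 1.56 ± 0.28 with IgM (limma adjusted p = 0.0191). The part of these cells in the member values was not tested.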

How the data were processed

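Expression was measured on 12 Affymetrix arrays, 3 in each of 4 groups given by the labels. The deposited values are log2 GCRMA signals made by the authors (GCRMA, per the submitters' processing notes) with settings not given in the sources used here. Between 58.9 and 59.9% of an array's probe sets had values of 4 or less. Of 45101 probe sets 34945 named 1 gene, and only these were used, with symbols updated through gene IDs. A gene was represented by its passing probe set (log2 above 4 on at least 3 arrays) with the highest mean. limma 3.58.1 (R 4.3.3; lmFit, contrasts.fit, eBayes) fitted 1 mean per group over all 12 arrays, with Benjamini-Hochberg adjustment over 9293 genes. The main fit had no replicate block, and the pairing of same-numbered samples was checked by the correlation of their deviations from the group means (0.17 to 0.85, all 12 above 0.1). The fit was tested on simulated data. Summed signals are sums of 2 to the power of the log2 values. The members and gene lists were chosen with earlier results of these data known. Every member past the threshold in any comparison with or without the block, and a set of well known ones, was described with values, and the others by range or count. Alternatives covered the block, the filter, the probe set rule, centring, quantile normalization, a trended and robust eBayes, array weights and each array or replicate number left out.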

Additional observations from a re-analysis of the deposited data

How the results depend on the processing

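Counts of called members moved with the error model more than with the scaling. Without IgM the 2 members called higher became 8 with the replicate block, 29 with the block and without replicate 3 of deleted cells with IgM, and 16 with array weights, while the share of all genes called higher went from 2.03% to 4.51%, 11.6% and 5.35%. They became 1 with arrays centred on their medians, with quantile normalization and with a trended, robust eBayes. With no filter Ccna2 and Nuf2 both lost their calls. The 1 member called there was Kif2c, close to the lowest values, where 0.819% of all genes were called higher. With IgM the 3 became 16, 19 and 18 under the first 3 of these settings (all genes 1.59%, then 5.66%, 9.73% and 5.75%), 1 after quantile normalization and 0 with no filter or with only the 6 arrays compared. Over both states the 19 became 36 and 30 under the block without that array and under array weights (all genes 4.95%, then 18% and 10%), 11 with no filter and 0 when the arrays of one number were averaged. The 3 falls in control cells became 5, 11 (9 lower, 2 higher) and 9, while the genes called lower went from 12% to 20% with the block and 33.7% with the block and without that array, and 5 with only the arrays compared. The 1 fall in deleted cells became 3, 4 and 4, and 0 after quantile normalization. Leaving out arrays gave 0 to 12 without IgM, 0 to 4 with IgM, 0 to 27 over both states, 1 to 7 in control and 0 to 3 in deleted cells. The interaction called 0 members under all alternatives run. The genotype medians of the members stayed positive under every alternative (0.55 to 1.12 without IgM, 0.84 to 1.24 with IgM, 0.74 to 1.03 over both). The medians of the IgM response ranged from -0.37 to 0.02 in control and from -0.52 to 0.06 in deleted cells, turning sign after quantile normalization and without replicate 1. The cause of these shifts was not tested.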
